A study of Mus musculus with 36 samples.

Results

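The ventral tegmental area (VTA) of mice with a knock-in (KI) at Maoa was compared with the VTA of wild-type (WT) mice by RNA-seq. The comparison takes the 3 KI and 3 WT libraries whose titles carry the region label VTA, 6 of the 36 libraries of a series that sampled 6 brain regions. Per the labels all animals were C57 mice aged 6 to 7 weeks. The labels leave out the substrain, the sex, any littermate relation and how the knock-in was bred, and no drug or other treatment is named. No label ties a library to an animal of its own. The spread on which each p-value rests is therefore that of the libraries, and it can be technical. The region label is not spelled out and was read as ventral tegmental area; its markers are checked below.

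The VTA is a midbrain field of dopamine neurons, mixed with GABA and glutamate neurons, that projects to the nucleus accumbens, prefrontal cortex and amygdala and is known for its part in reward and in responses to addictive drugs. Maoa, on the X chromosome, encodes monoamine oxidase A, a mitochondrial outer membrane enzyme that oxidises serotonin, noradrenaline and dopamine. The series title names a synonymous base change and states that it lowers transcription and translation of Maoa. Dopamine itself is made by tyrosine hydroxylase (Th) and aromatic amino acid decarboxylase (Ddc), packed into vesicles by Slc18a2 and taken back into the neuron by the transporter Slc6a3.

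Of the 6 libraries, WT VTA 3 went against its label. Its dopamine markers were near the floor, with Slc6a3 at 0.601 CPM (CPM are read counts scaled to a common library total) against 233 to 578 CPM in the other 5 libraries, and Th at 11.4 CPM against 154 to 380. Markers of striatal projection neurons were high in it instead: the dopamine receptor gene Drd1 stood at 142 CPM against 0.860 to 3.26, and the adenosine receptor gene Adora2a at 211 against 1.91 to 3.15. Over the 20 striatal genes the mean of log2(CPM + 1) was 7.30 in WT VTA 3 and 3.53 to 3.88 in the others, and over the 20 dopamine genes it was 2.34 against 5.38 to 6.18. The other 5 libraries carried the dopamine markers of their label. Results are therefore given without WT VTA 3, which leaves 2 WT libraries, and beside them over all 6.

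**Figure D1:**
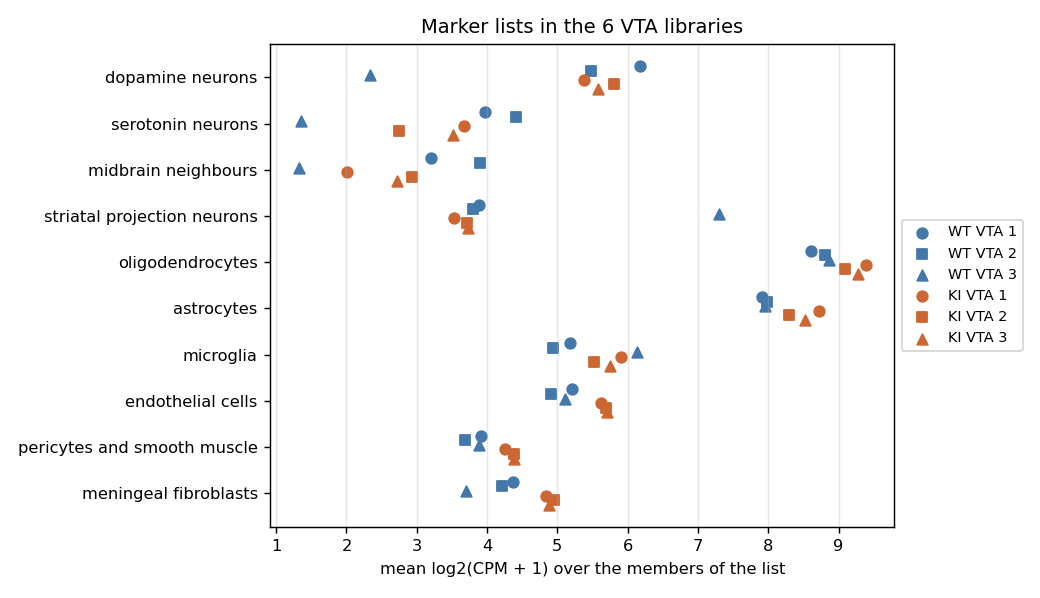
Mean log2(CPM + 1) of 10 marker lists (rows) in each VTA library; colour gives the genotype and the symbol the number in the title. WT VTA 3 lies apart on the dopamine list (2.34), the striatal list (7.30) and the microglial list (6.13), and the KI libraries lie above all 3 WT libraries on the oligodendrocyte, astrocyte, endothelial, pericyte and meningeal lists.

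KI VTA 3 also stood apart, in another way: it lay between KI VTA 1 and KI VTA 2 wherever those libraries differed widely. In 35 genes they differed at least 4-fold, with at least 5 CPM in the higher library, and in 35 of these 35 KI VTA 3 fell between them. The appetite peptide gene Pmch stood at 99.5, 7.33 and 50 CPM in KI VTA 1, 2 and 3, the serotonin synthesis gene Tph2 at 131, 15.6 and 72.2, and the peptide gene Cartpt at 5.62, 313 and 152. The weight of KI VTA 1 in KI VTA 3 had a median of 0.547, with 10% to 90% of the genes from 0.475 to 0.609. Among the 23 other libraries with at least 20 such genes, at most 89.4% of the genes lay between, and the narrowest range from 10% to 90% spanned 0.386, against 0.134 here. Over 13668 genes, KI VTA 3 differed from the best weighted mean of KI VTA 1 and 2 by a median of 1.95 times counting noise. The other 35 libraries of the series stood at 2.68 to 53.2 against their own group. In that best mean the weight of KI VTA 1 was 0.4, below the 0.475 to 0.609 of the 35 genes. KI VTA 2, and to a lesser level KI VTA 3, carried genes of cerebellar Purkinje and granule cells. Pcp2 stood at 0.0662, 36.6 and 16.3 CPM in KI VTA 1, 2 and 3 and at most 0.442 in WT, Car8 at 20.9, 226 and 112 against 14.5 to 21.1 in WT, and Ppp1r17 at 1.99, 28.5 and 14.5 against 1.08 to 3.29. None of these genes passed by edgeR, and the part of such tissue in other results was not tested. Why KI VTA 3 lies between the other KI libraries was not tested. A fit of 5 libraries counts it as a replicate of its own, so calls are also given without it.

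**Figure D2:**
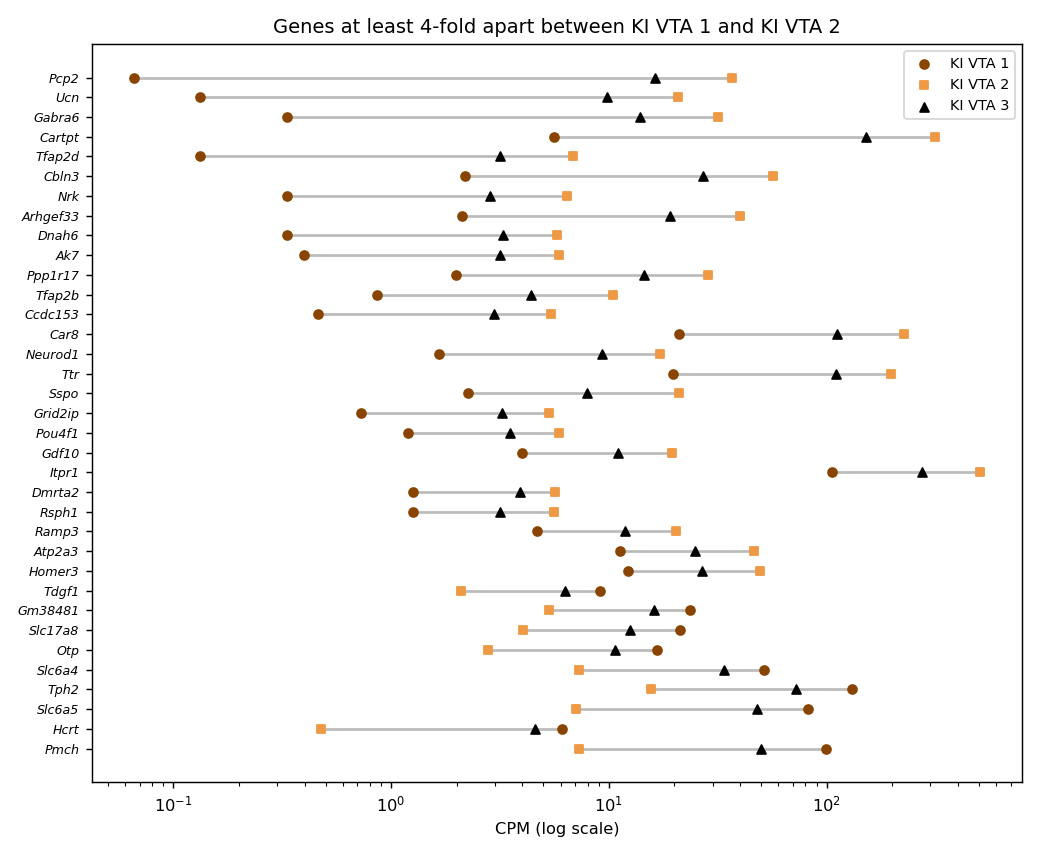
CPM on a log scale (x axis) of the 35 genes at least 4-fold apart between KI VTA 1 (circles) and KI VTA 2 (squares), with KI VTA 3 as triangles. Every triangle lies between the circle and the square, as for Pmch (99.5, 7.33 and 50 CPM) and Cartpt (5.62, 313 and 152 CPM).

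Over all 6 libraries edgeR's quasi-likelihood test passed 0 of 14491 genes (0% higher and 0% lower), and its lowest adjusted p was 0.354. An unadjusted p under 0.05 was reached by 1880 of them (13%). DESeq2 passed 133 higher (0.918%) and 101 lower (0.697%), 1.61% in all. Without WT VTA 3, edgeR passed 525 of 14623 genes higher in KI (3.59%) and 307 lower (2.1%), and these are the genes said to have risen or fallen below. Most moved less than 2-fold, the median size being 0.63 on the log2 scale, and 118 rises but only 9 falls passed 2-fold. When KI VTA 3 was left out as well, edgeR passed 0 of 14529 genes (lowest adjusted p 0.113), though 2671 of them (18.4%) had an unadjusted p under 0.05. DESeq2 passed 340 higher (2.34%) and 152 lower (1.05%), 3.39% in all. Of those 492 genes, 408 were among the 832 rises and falls in the same direction, which is 49.0% of the 832 and 82.9% of the 492. In all 3 WT libraries, WT VTA 3 included, 245 of the 525 rises lay below every KI library and 162 of the 307 falls above every KI library. Of all 14491 genes, 1590 (11%) were higher in every KI library than in all 3 WT libraries and 1797 (12.4%) lower. Against WT VTA 1 and 2 alone, from which the calls were drawn, 3481 of 14623 genes (23.8%) were higher and 3562 (24.4%) lower. Leaving out 1 of the 5 libraries at a time moved the edgeR count of 832 to 128 without WT VTA 1, 36 without WT VTA 2, 89 without KI VTA 1, 1720 without KI VTA 2 and 0 without KI VTA 3. DESeq2 on the 5 libraries passed 1042 higher (7.13%) and 769 lower (5.26%), 12.4% in all. An unadjusted edgeR p under 0.05 was reached by 4168 of the 14623 genes (28.5%). The list counts below are to be read beside these shares and those of edgeR. The authors' deposited table, made by DESeq2, calls 154 genes in VTA at a q-value under 0.05, 106 higher and 48 lower. Its log2 fold change for Drd1, −4.86, is that of DESeq2 here over all 6 libraries, WT VTA 3 included. Of the 154 genes 142 are among the 832, an overlap of unlike library sets and tools that draws on the same data. Total counts were lower in every KI library (15440152 to 16496192) than in every WT library (17275279 to 17711129), and the part of depth in these results was not tested.

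**Figure D3:**
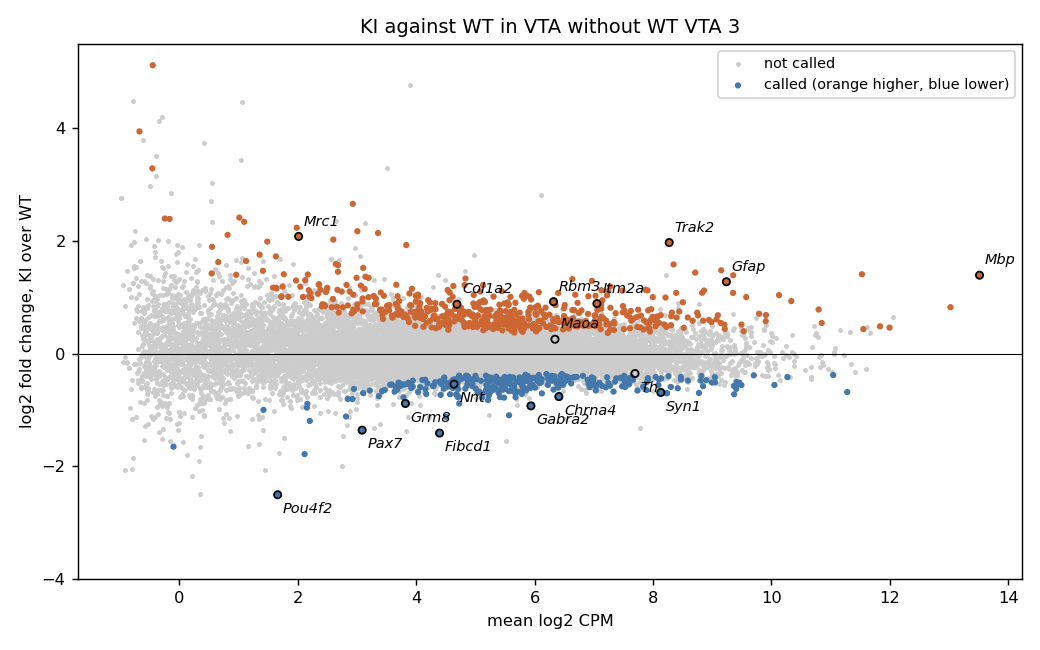
Log2 fold change of KI over WT without WT VTA 3 (y axis) against mean log2 CPM (x axis), 1 point per gene, with the 525 rises in orange, the 307 falls in blue and other genes in grey; 3 genes lie outside the axis. Mbp (1.39) is the rise marked farthest right, Pou4f2 (−2.51) the largest fall marked, and Maoa (0.26) and Th (−0.35) were not called.

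Maoa (GRCm38.p6 chromosome X, 16619698 to 16687812) did not pass the test, and its values were higher in KI. Its WT libraries stood at 75.4, 79.0 and 55.7 CPM and the KI libraries at 102, 83.5 and 91.5 CPM, so every KI library lay above every WT library, the lowest of which was the striatal-like WT VTA 3. The log2 fold change was 0.40 over all 6 libraries (SE 0.164, edgeR adjusted p = 0.384) and 0.26 without WT VTA 3 (SE 0.106, adjusted p = 0.156), and neither passed. The authors' deposited table gives 0.39 with a q-value of 0.435. Maob, the neighbouring gene of the other monoamine oxidase, stood at 52.2, 60.3 and 48.1 CPM in WT and 53.8, 40.5 and 47.7 in KI (log2 fold change −0.25, adjusted p = 0.242).

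Among genes that make, carry or degrade monoamines, 26 were tested, of which 2 rose (3.59% of all genes did) and 1 fell (2.1% of all genes). The fall was Slc29a4, the plasma membrane monoamine transporter, at 36.1, 30.7 and 11.5 CPM in WT and 22.3, 25.6 and 23.3 in KI (log2 fold change −0.49, SE 0.113, adjusted p = 0.0452). WT VTA 3 was below all KI libraries, so the groups overlapped over 6 libraries. Both rises were genes of noradrenaline neurons at very low counts: Dbh, the last step of noradrenaline synthesis, stood at 0.993, 0.834 and 1.07 CPM in KI and at 0.112, 0 and 0.120 in WT, and the noradrenaline transporter gene Slc6a2 at 1.12, 1.01 and 1.32 in KI and at most 0.166 in WT. All KI libraries were above all WT libraries for both genes. Among enzymes of tetrahydrobiopterin, the cofactor of monoamine synthesis, Qdpr had 1128, 910 and 1084 CPM in KI against 546, 803 and 651 in WT, which did not pass (log2 fold change 0.63, adjusted p = 0.0590).

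Dopamine neuron genes did not pass in either direction by edgeR: 0 of 20 were called (6 at an unadjusted p under 0.05, which 28.5% of all genes reached, and 3 called by DESeq2), 18 of the 20 had lower means in KI, and the median log2 fold change was −0.33. Over all genes tested 50.8% had lower means and the median was −0.01. With WT VTA 3 included the direction turned, with 17 of 20 higher and a median of 0.21. The WT libraries themselves were far apart, with Th at 380 and 186 CPM in WT VTA 1 and 2 and 154, 292 and 218 in KI, so the KI values overlapped WT (log2 fold change −0.35, SE 0.311). Slc6a3 overlapped in the same way, at 578 and 233 CPM in WT VTA 1 and 2 and 384, 501 and 432 in KI. Aldh1a1, the aldehyde dehydrogenase of ventral dopamine neurons, differed from most of its list: it stood at 852, 668 and 771 CPM in KI against 582, 354 and 50.2 in WT (log2 fold change 0.71, adjusted p = 0.0654 by edgeR and, without KI VTA 3, 0.0195 by DESeq2). In bulk tissue, fewer cells of a type and less RNA per cell cannot be told apart, here or in the lists that follow. Of the 20 striatal markers 1 rose without WT VTA 3, Ppp1r1b, the phosphoprotein DARPP-32 of dopamine-responsive neurons, from 63.7 and 49.8 to 87.0, 85.1 and 92.5 CPM (0.64, adjusted p = 0.0310). WT VTA 3 held 1230 CPM of Ppp1r1b, and with it the log2 fold change was −2.34.

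Genes of neighbouring midbrain nuclei and of serotonin neurons had lower means in KI. All 16 tested genes of neighbouring midbrain nuclei had lower means (median log2 fold change −1.19), and 4 fell. Pou4f2, a transcription factor of midbrain and retinal projection neurons, stood at 2.68 and 11.6 CPM in WT VTA 1 and 2 and 0.926, 1.55 and 1.26 in KI (log2 fold change −2.51, SE 0.554, adjusted p = 0.0425). Sox14 (−1.79), Pax7 (−1.36) and Barhl1 (−1.12), each a transcription factor of the developing brainstem, fell with it. The 2 WT libraries differed widely in several of these genes, as in Pax7 at 9.99 and 21.6 CPM against 5.30 to 7.48 in KI. WT VTA 3 held 0 to 0.0601 CPM of these 4 genes, so over 6 libraries the groups overlapped and none passed. All 8 serotonin neuron genes also had lower means (median −0.85), and 1 of them fell, the serotonin receptor gene Htr1a, at 26.6, 25.8 and 10.8 CPM in WT and 20.1, 14.8 and 18.2 in KI (log2 fold change −0.57, adjusted p = 0.0483). Tph2 was 106 and 219 CPM in WT VTA 1 and 2 and 131, 15.6 and 72.2 in KI, a spread within KI larger than the difference (log2 fold change −1.16, SE 0.641). Of 13 hypothalamic genes 1 fell (2.1% of all genes did) and 0 rose. In this list 9 had lower means and 4 higher, and the median was −0.17 (0.01 over 6 libraries). The fall was Foxb1, of the mammillary hypothalamus, by 1.0 on the log2 scale, from 5.13 and 3.59 CPM to 2.08 to 2.32. WT VTA 3 held 0 CPM of Foxb1, below every KI library. How much of each neighbouring nucleus a piece of tissue held was not tested.

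Myelin and oligodendrocyte genes rose in KI. Of 16 oligodendrocyte genes 7 rose and 0 fell, all 16 had higher means, as 49.2% of all genes did, and the median log2 fold change was 0.53 (0.38 over 6 libraries, 0.54 without KI VTA 3). In 13 of the 16 every KI library was above WT VTA 1 and 2, which held for 23.8% of all genes. Mbp, encoding myelin basic protein, stood at 5481, 6983 and 8601 CPM in WT and 19901, 11988 and 17217 in KI, with no overlap (log2 fold change 1.39, SE 0.205, edgeR adjusted p = 0.0239; DESeq2 without KI VTA 3, 1.13e-07). Mobp, another myelin protein gene, rose by 1.0. Mal, a myelin membrane protein, rose by 0.58, but WT VTA 3 at 1156 CPM lay above all KI libraries (1003 to 1141). Among 12 genes of oligodendrocyte precursors and maturing cells 4 rose, led by Bcas1, a marker of cells that begin to form myelin, at 287, 418 and 449 CPM in WT and 1143, 712 and 917 in KI (log2 fold change 1.39, SE 0.219). Enpp6, of newly formed oligodendrocytes, rose by 0.66, with WT VTA 3 at 35.2 CPM within the KI range (34.5 to 47.7). Pdgfra, the receptor that marks precursors, rose by 0.58 without WT VTA 3 (adjusted p = 0.0440), which itself held 103 CPM against 68.0 to 74.9 in KI.

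Astrocyte genes rose as well, 5 of 14, with higher means in all 14 and a median of 0.52 (0.48 over 6 libraries). Gfap, the intermediate filament of astrocytes, stood at 428, 286 and 317 CPM in WT and 1067, 630 and 896 in KI (log2 fold change 1.28, SE 0.237, edgeR adjusted p = 0.0308). All KI libraries were above all WT libraries, and DESeq2 passed Gfap over 6 libraries (adjusted p = 0.000348) but not without WT VTA 3 and KI VTA 3 (0.0870). The glutamate transporters of astrocytes rose too, Slc1a2 by 0.78 and Slc1a3 by 0.73. For both, WT VTA 3 was higher than every KI library, at 3112 CPM for Slc1a2 against 1438 to 2251 and at 910 for Slc1a3 against 372 to 430, and with it the log2 fold changes were 0.06 and −0.23. Aldoc, an astrocyte glycolytic enzyme, was 1815 to 2240 CPM in KI and 1057 to 1708 in WT (log2 fold change 0.30, adjusted p = 0.120).

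Of 14 microglial genes 9 rose and 0 fell, with a median of 0.69 and higher means in all 14. Trem2, a lipid-sensing receptor, stood at 10.6, 10.3 and 20.3 CPM in WT and 19.5, 17.5 and 21.6 in KI (log2 fold change 0.90, adjusted p = 0.0239). Fcrls (0.95) and the protease gene Ctss (0.80) rose likewise. WT VTA 3 lay above the lowest KI library in every one of the 14 genes, so 0 of the 14 separated over all 6 libraries, the median was then 0.26, and DESeq2 and edgeR passed none. With WT VTA 3, 13 of the 14 still had higher means in KI, while the calls and the separation of the genotypes held only without it. Mrc1, a receptor of macrophages along blood vessels and meninges, rose from 1.40 and 1.33 to 7.15, 4.82 and 5.42 CPM, with WT VTA 3 at 3.55 (log2 fold change 2.08).

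Genes of vessels and meninges rose without WT VTA 3. With it all 12 genes of each of these lists had higher means, though edgeR then called 0. Without WT VTA 3 and KI VTA 3, DESeq2 called 5 endothelial, 1 pericyte and smooth muscle and 3 meningeal genes. In 7 of the 12 pericyte and smooth muscle genes all KI libraries were above all 3 WT libraries. Of 12 endothelial genes 6 rose, and 10 had all KI libraries above all 3 WT libraries, which 11% of all genes did. Itm2a stood at 89.7, 93.0 and 105 CPM in WT and 175, 167 and 166 in KI (log2 fold change 0.89, SE 0.0903, edgeR adjusted p = 0.0189). DESeq2 called Itm2a over 6 libraries (adjusted p = 7.12e-07) and without WT VTA 3 and KI VTA 3 (7.52e-07). Slco1a4, an organic anion transporter of the blood-brain barrier, rose by 1.08, and the angiopoietin receptor gene Tek by 0.82. Of 12 pericyte and smooth muscle genes 5 rose, with Rgs5 at 76.1, 77.0 and 100 CPM in WT and 175, 141 and 150 in KI (log2 fold change 1.02, SE 0.115), Abcc9 at 0.93 and Notch3 at 0.62. Of 12 meningeal fibroblast genes 6 rose, and 11 separated from all 3 WT libraries. The collagen gene Col1a2 was 19.5, 17.3 and 15.8 CPM in WT and 34.7, 33.3 and 33.3 in KI (log2 fold change 0.88, SE 0.104), Col3a1 rose by 1.21, and the growth factor gene Igf2, made in meninges and choroid plexus, by 1.05. Vtn, counted among pericyte and meningeal genes both, rose by 0.55. Haemoglobin genes, which track blood left in the tissue, had higher means in 5 of 5 and 0 called by edgeR. Of them 3 had an unadjusted p under 0.05 (28.5% of all genes did) and DESeq2 called 2 (12.4% of all genes). Hbb-bs stood at 311, 215 and 293 CPM in KI and 195, 168 and 125 in WT (log2 fold change 0.59, edgeR adjusted p = 0.0610). The part of haemoglobin genes in the rise of vessel genes was not tested.

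**Figure D4:**
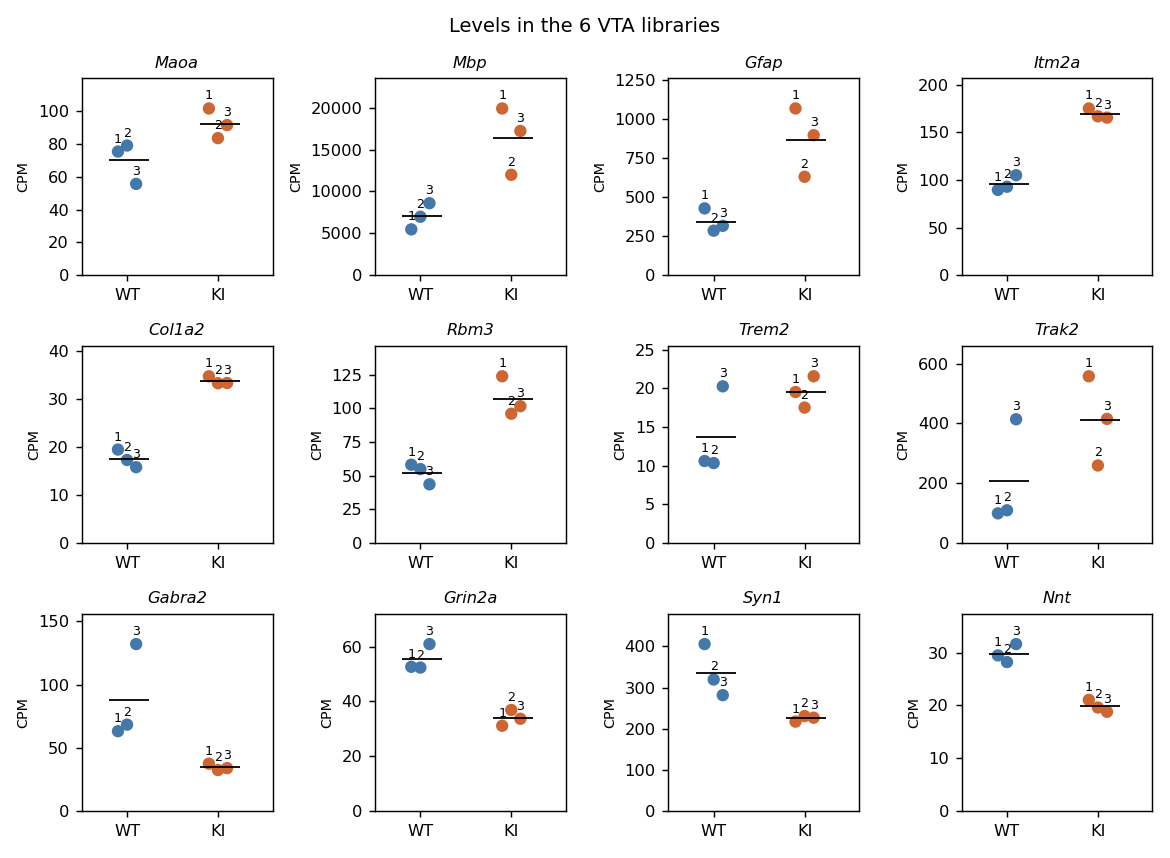
CPM (y axes, from 0) of 12 genes in each VTA library, numbered as in the titles; horizontal bars are the means of 3 libraries. KI and WT do not overlap for Maoa, Mbp, Gfap, Itm2a, Col1a2, Rbm3, Gabra2, Grin2a, Syn1 and Nnt, while WT VTA 3 reaches the KI range for Trem2 (20.3 CPM) and Trak2 (414 CPM).

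Pan-neuronal and synaptic genes mostly had lower means. In a list of 20 put together after values had been seen, 4 fell, 17 had lower means, and the median was −0.33 (−0.11 over 6 libraries). In 16 of the 20 every KI library was below WT VTA 1 and 2, which held for 24.4% of all genes. Rbfox3, the neuronal nuclear antigen NeuN, stood at 111, 88.2 and 133 CPM in WT and 53.7, 62.7 and 63.5 in KI (log2 fold change −0.73, SE 0.124, edgeR adjusted p = 0.0264; DESeq2 over 6 libraries, 0.00377). Syn1, synapsin of synaptic vesicles, was 406, 319 and 282 CPM in WT and 217, 231 and 227 in KI (−0.69), and Eno2, the neuronal enolase, 1302, 1296 and 1110 against 811, 954 and 887 (−0.56). All 3 genes were lower in every KI library than in every WT library, WT VTA 3 included. Snap25, of the vesicle fusion complex, did not pass by edgeR (log2 fold change −0.33, adjusted p = 0.0677), while DESeq2 without WT VTA 3 passed it (0.0153). Its KI values of 1952 to 2263 CPM lay below WT VTA 1 and 2 (2700 and 2570) and above WT VTA 3 (977). The glial and vascular lists above moved with genotype in the opposite direction in the same libraries, and their part in the lower share of neuronal reads was not tested.

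Among GABA-A receptor subunits, which form the chloride channels of fast inhibition, 2 of 17 fell (2.1% of all genes did) and 0 rose. Gabra2, the α2 subunit, was 63.1, 68.3 and 132 CPM in WT and 37.4, 32.3 and 33.8 in KI, with no overlap (log2 fold change −0.93, SE 0.100, edgeR adjusted p = 0.0189; DESeq2 without KI VTA 3, 0.000105). Gabra5, the α5 subunit of extrasynaptic receptors, was 36, 48.1 and 66.9 CPM in WT and 26.9, 26.3 and 26.3 in KI (−0.66). Of 11 genes of GABA synthesis, transport and GABA-B receptors 2 fell, Gad2, which makes GABA (234, 282 and 565 CPM in WT, 197, 189 and 178 in KI, −0.46), and the vesicular transporter Slc32a1 (182, 188 and 266 against 128, 133 and 151, −0.43). Striatal projection neurons are GABA neurons, and WT VTA 3 was the highest library for Gabra2, Gabra5, Gad2 and Slc32a1, yet all KI libraries were below WT VTA 1 and 2 as well.

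Of 18 ionotropic glutamate receptor genes 4 fell and 1 rose. Grin1, the obligatory subunit of NMDA receptors, was 329, 318 and 326 CPM in WT and 184, 253 and 223 in KI (log2 fold change −0.56, SE 0.131, adjusted p = 0.0469), and Grin2a 52.6, 52.4 and 60.9 against 31.1, 36.9 and 33.7 (−0.63, adjusted p = 0.0259). Neither overlapped between genotypes. Grin2d fell by 0.70, with WT VTA 3 at 19.4 CPM below KI (23.0 to 33.5). Grin2c, the subunit found in cerebellar granule cells and astrocytes, went the other way, from 32.8, 26.7 and 41.0 CPM in WT to 46.9, 50 and 47.3 in KI (0.69). The AMPA receptor gene Gria1 did not pass (−0.01). Grm8, a presynaptic metabotropic receptor, fell by 0.89 (22.1 and 20.3 CPM in WT VTA 1 and 2, 10.5, 12.4 and 11.5 in KI). WT VTA 3 held 7.03 CPM of Grm8, below every KI library.

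Of 15 nicotinic and muscarinic receptor genes 2 fell (2.1% of all genes did) and 0 rose, and 14 had lower means. An unadjusted p under 0.05 was reached by 10 of them (28.5% of all genes). In 9 of the 15 every KI library was below WT VTA 1 and 2 (24.4% of all genes), and the median was −0.51 (−0.25 over 6 libraries). Chrna4, the nicotinic subunit carried by dopamine neurons, was 151 and 111 CPM in WT VTA 1 and 2, 15.5 in WT VTA 3, and 62.2, 91.4 and 77.8 in KI (log2 fold change −0.76, adjusted p = 0.0446). The other fall was the muscarinic receptor gene Chrm3 (−0.42). Of 7 opioid genes 1 fell, the nociceptin receptor gene Oprl1 (103 and 98.0 to 74.4, 77.1 and 76.2 CPM, −0.40). WT VTA 3 held 54.3 CPM of Oprl1, below every KI library, and with it the log2 fold change was −0.16. Htr5a, the other of 2 falls among 14 dopamine and serotonin receptor genes, went from 12.1, 9.62 and 9.02 to 6.88, 6.85 and 6.30 CPM (−0.70), while Drd2, the autoreceptor of dopamine neurons, overlapped (67.9 and 41.2 CPM in WT VTA 1 and 2, 149 in WT VTA 3, 29.0 to 47.9 in KI). Among 19 neuropeptide genes 2 fell and 1 rose, and 14 had lower means. Vgf, a secreted granule protein induced by neurotrophins, fell from 417, 328 and 378 to 184, 268 and 234 CPM (−0.70), Nxph4 fell by 0.77, and Nts, neurotensin, rose from 7.81 and 8.57 to 13.6, 14.2 and 14.1 CPM (0.77). WT VTA 3 held 39.4 CPM of Nts, and with it the log2 fold change of Nts was −0.41. It held 3.67 CPM of Nxph4, below every KI library (18.7 to 26.5).

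**Figure D5:**
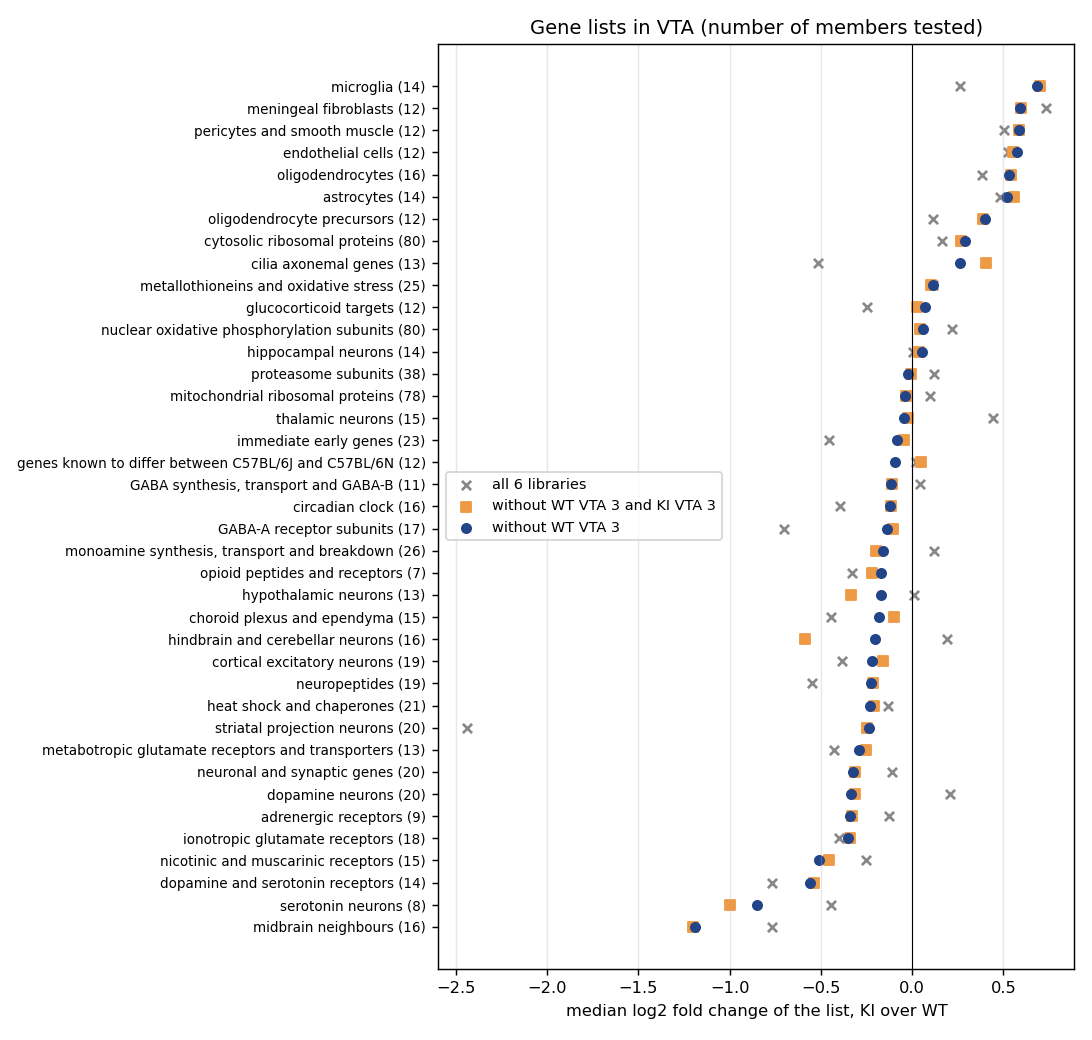
Median log2 fold change of each gene list of 7 or more tested members (rows, with that number) without WT VTA 3 (circles), without WT VTA 3 and KI VTA 3 (squares) and over all 6 libraries (crosses). Glial and vascular lists lie right of 0 and midbrain neighbours at −1.19; the striatal list moves from −0.24 to −2.44 and the dopamine list from −0.33 to 0.21 when WT VTA 3 is included.

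Of 23 immediate early genes 2 fell (2.1% of all genes did) and 0 rose, 13 had lower means, and the median was −0.09 (−0.46 over 6 libraries). The falls were Npas4, a transcription factor induced by neuronal activity, from 4.30, 4.04 and 11.2 to 2.45, 2.14 and 1.83 CPM (−0.96, adjusted p = 0.0483), and Arc, of synapses, from 50.3, 40.6 and 119 to 32.2, 28.7 and 31.3 CPM (−0.57). Both were lower in every KI library than in every WT library, with WT VTA 3 the highest. Egr1, another activity-induced factor, was 33.8 and 37.5 CPM in WT VTA 1 and 2, 205 in WT VTA 3 and 36.2 to 52.1 in KI, and did not pass. Heat shock and chaperone genes had 0 of 21 called by edgeR and 18 lower means (median −0.23; 50.8% of all genes had lower means). Of the 21, 8 had an unadjusted p under 0.05 (28.5% of all genes did) and DESeq2 called 3 (12.4% of all genes). In 13 every KI library was below WT VTA 1 and 2, which held for 24.4% of all genes. Hspa8 stood at 3134, 3210 and 2411 CPM in WT and 2433, 2606 and 2509 in KI (log2 fold change −0.33, edgeR adjusted p = 0.0513). The metal-binding gene Mt1 rose from 174, 176 and 144 to 303, 237 and 298 CPM (0.68, SE 0.123), 1 of 25 genes of its list. Rbm3, an RNA-binding protein induced by cooling, stood at 58.2, 54.9 and 43.6 CPM in WT and 124, 96.0 and 102 in KI (0.92, SE 0.125; DESeq2 without KI VTA 3, 1.87e-05), while Cirbp, the other cold-induced gene, had a log2 fold change of 0.10. Of 80 cytosolic ribosomal protein genes 79 had higher means (median 0.29, and 0.17 over 6 libraries) and 2 rose, Rps14 and Rps7, with WT VTA 3 within the KI range for both. Of these 80 genes 43 had an unadjusted p under 0.05 (28.5% of all genes did) and DESeq2 passed 26 (12.4% of all genes). In 58 every KI library was above WT VTA 1 and 2, which held for 23.8% of all genes. Circadian clock genes and glucocorticoid targets had 0 of 16 and 0 of 12 called by edgeR. An unadjusted p under 0.05 was reached by 4 and 3 of them, a smaller share than the 28.5% of all genes. DESeq2 passed 2 and 0, against 12.4% of all genes.

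Genes known to differ between the C57BL/6J and C57BL/6N substrains were listed because the labels give only C57. Of 12 tested 2 fell, Gabra2 (above) and Nnt, the mitochondrial transhydrogenase that is truncated in C57BL/6J. Nnt was 29.5, 28.2 and 31.6 CPM in WT and 21.0, 19.6 and 18.8 in KI (log2 fold change −0.54, SE 0.102, edgeR adjusted p = 0.0310; DESeq2 over 6 libraries, 0.00972, and without WT VTA 3 and KI VTA 3, 0.139). Across the regions, fitted separately and on a common CPM scale, mean Nnt was 28.7 ± 1.30 in WT and 18.8 ± 1.04 in KI in VTA (SD, n = 3 each), and 26.1 to 34.4 in WT and 20.6 to 21.7 in KI in the other 5. Gabra2 had negative log2 fold changes in HP (−1.39), PFc (−1.17), Nac (−1.01) and STR (−0.56) beside VTA (−1.35 over 6 libraries). Without WT VTA 3, its highest VTA library, the VTA value was −0.93. In SN the log2 fold change was 0.16 (SE 0.302), with 53.0 to 80.8 CPM in WT and 47.1 to 106 in KI. The regional values include libraries that carry markers of another region. KI SN 2 correlated at 0.985 with WT VTA 3, which carries striatal markers, so the SN value cannot be read as a regional exception. WT VTA 3 correlated highest with WT Nac 3 (0.9855), and at 0.949 to 0.967 with the STR libraries. Whether strain background bears on these values was not tested, and it cannot be told apart from the knock-in where it follows genotype. Around Maoa, 35 genes were tested within 5 Mb on either side, of which 1 rose and 2 fell (8.57%, against 5.69% of all genes): Dipk2b (1.63), Usp11 (−0.60) and Syn1 (−0.69).

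Several of the largest rises did not separate from WT VTA 3. Trak2, which links mitochondria to kinesin motors, was 99.5 and 110 CPM in WT VTA 1 and 2 and 558, 260 and 415 in KI (log2 fold change 1.97, SE 0.278, edgeR adjusted p = 0.0239; DESeq2 without KI VTA 3, 0.0111), with WT VTA 3 at 414. Itgb8, an integrin of glia that activates TGF-β (2.14), the transcription factor gene Zbtb20, on the hippocampal list (1.93), Zbed6 (2.24), Trim56 (2.34), Il6ra, the interleukin-6 receptor (1.73), and Socs4 (1.65) had the same pattern, with WT VTA 3 within or above the KI range. Others separated from all 3 WT libraries: Endou (0.837, 0.332 and 0.902 CPM in WT, 2.38, 3.51 and 3.53 in KI), Dpp4 (1.76), the calsequestrin gene Casq2 (2.51, 3.54 and 3.43 to 7.74, 11.6 and 8.07 CPM, 1.59), and Ccn3, a matricellular protein (18.6, 11.8 and 12.1 to 36.6, 34.4 and 34.1 CPM, 1.20). Prkcd, a protein kinase C of thalamic and other neurons, rose from 17.6, 13.3 and 22.8 to 29.3, 47.1 and 40.1 CPM (1.33). Plekhg1, also on the thalamic list, rose by 0.74, but WT VTA 3 at 31.0 CPM lay within the KI range (28.6 to 37.2). Of the 15 thalamic genes 7 had higher means. Of 15 choroid plexus and ependymal genes 1 rose (3.59% of all genes did), Tm4sf1 (0.51), and 10 had lower means. Of 13 genes of ciliary axonemes 1 rose, the dynein gene Dnah5 (1.19), and 10 had higher means, but WT VTA 3 held more Dnah5 (6.13 CPM) than any KI library (4.04 to 5.18). Cbln3, of cerebellar granule cells, was 2.18, 56.8 and 27.2 CPM in the KI libraries and 0.361 to 1.38 in WT. KI VTA 2 was highest, and Cbln3 did not pass by edgeR (adjusted p = 0.0527). Among 16 hindbrain and cerebellar genes 0 rose and 1 fell (2.1% of all genes did). The fall was Lhx5 (−0.63), with WT VTA 3 at 0.661 CPM, below every KI library (7.08 to 7.63).

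The 14 hippocampal markers went both ways, with 2 rises (Zbtb20, and Bok, a BCL2 family gene, at 0.66), 1 fall (Fibcd1), 7 higher means and a median of 0.05. Fibcd1, a chitin-binding receptor, went from 23.7, 46.2 and 16 to 10.9, 15.1 and 13.4 CPM (−1.41, SE 0.257, edgeR adjusted p = 0.0298; DESeq2 without KI VTA 3, 0.000365). C1ql2, a secreted synaptic organiser, fell from 43.0 and 35.4 to 11.5, 23.9 and 18.3 CPM (−1.12), with WT VTA 3 at 3.07, and Cpne9, a copine, fell by 1.10. The chemokine gene Ccl21b fell by 1.20 and has near-identical copies between which reads could be divided. WT VTA 3 held 3.49 CPM of Ccl21b, within the KI range (2.58 to 3.78). Kcnj5, a G protein-gated potassium channel subunit, went from 6.70, 5.03 and 4.87 to 2.85, 3.40 and 3.21 CPM (−0.89), below every WT library. The zinc finger gene Zfp967 rose by 2.17 and the transcription factor gene Bcl11a fell by 0.77. WT VTA 3 held 6.97 CPM of Zfp967, within the KI range (6.91 to 14.7). Over 6 libraries DESeq2 passed Gpr83 (−2.16) and Cpne5 (−2.07), for which WT VTA 3 was highest, at 93.9 and 177 CPM. Without WT VTA 3 the log2 fold changes of Gpr83 and Cpne5 were −0.72 (edgeR adjusted p = 0.0497) and −0.91 (0.0606).

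Whether any genotype effect was particular to VTA was tested against the mean effect in the other 5 regions over all 36 libraries. Of 15367 genes edgeR passed 0 (0%), the lowest adjusted p being 0.150, and 1257 (8.18%) had an unadjusted p under 0.05. The count was also 0 without the 8 libraries of the series that carry markers of another region, which include WT VTA 3. Leaving out KI VTA 1 gave 5 genes higher in VTA. The smallest p-values were those of Cbln3, whose effect exceeded that elsewhere by 5.56, and of Arhgef33 (2.96), and in both KI VTA 2 was highest: Arhgef33 stood at 2.12, 39.9 and 19.0 CPM in KI and 1.95 to 2.34 in WT. On the lower side Ptprn, a dense-core vesicle protein (486, 416 and 509 CPM in WT, 230, 349 and 296 in KI), differed from the other regions by −0.82 and Prr36 by −0.84, each with an adjusted p of 0.57. For Mbp the difference was 0.04 and for Gfap 0.61, neither of which passed.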

How the data were processed

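The authors deposited estimated counts per gene (10.14% of the VTA values are not whole), which were rounded, and TPM, used only to describe level per length and not printed. Libraries were made with a SMARTER mRNA kit, per the labels. The genome build is GRCm38.p6, per the submitters' processing notes; aligner and counter: not given in the sources used here. For each comparison the authors deposited log2 fold changes with p- and q-values made by DESeq2, per the file headers. The table lists 19025 genes, 18969 with a RefSeq position. In all 246 other columns of per-sample values were not used.

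Genes passing edgeR's filterByExpr were tested with edgeR 4.0.16 (TMM, quasi-likelihood; R 4.3.3), with Benjamini-Hochberg adjustment over all genes tested and a threshold of 0.05. DESeq2 1.42.0 was an alternative. CPM are counts scaled by the TMM totals of the 6 libraries. A standard error is the log2 fold change divided by the square root of F. Unless stated, a fold change is KI over WT without WT VTA 3. Counts over a list are over the members that passed the filter. Depth ran from 15440152 to 17711129 counts per VTA library. Scripts were tested on simulated data. Python 3.11.15 and pandas 2.3.3 made the summaries.

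The libraries, lists and members were chosen with earlier results of these data known. Genes were named by rule: Maoa, up to 12 rises and 12 falls of largest change without WT VTA 3 with mean log2 CPM of at least 1, up to 6 each over 6 libraries, the 2 members of each list with highest CPM and up to 3 of smallest p, the genes of smallest p against other regions, and markers that set a library apart. Ddc, Slc18a2, Maob, Dipk2b, Usp11 and other genes outside that rule were added after values were seen. Alternatives were DESeq2, its size factors, no low-count filter, the title numbers as a block, each library left out, and all 36 libraries in a single fit; leaving out KI VTA 3 was added after seeing the data.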

Additional observations from a re-analysis of the deposited data

How the results depend on the processing

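Over all 6 libraries the edgeR count of 0 became 234 with DESeq2 and 2 with all 36 libraries in a single fit; leaving out 1 library gave 0 to 832, the 832 without WT VTA 3. Without WT VTA 3 the count of 832 became 1811 with DESeq2, 492 with DESeq2 and without KI VTA 3, and 0 to 1720 when 1 further library was left out. Without the filter on low counts it was 570, and with DESeq2 size factors 851. The count of genes differing between VTA and other regions was 0 to 5 with 1 VTA library left out. Of 87 named genes called without WT VTA 3, 0 were called over all 6 libraries and 3 turned sign. With 1 of the 5 libraries left out, 22 remained called without WT VTA 1, 4 without WT VTA 2, 17 without KI VTA 1, 82 without KI VTA 2 and 0 without KI VTA 3. With DESeq2 84 of 85 remained, with DESeq2 and without KI VTA 3 41 of 57, with DESeq2 size factors 86 and without the filter 64. The Maoa log2 fold change stayed between 0.26 and 0.49 and did not pass in any alternative run.

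With the title numbers as a replicate block the counts were 0 over 6 libraries and 429 without WT VTA 3, the Maoa value was 0.41, and 56 of the 87 named genes remained called. Deviations from the group mean correlated at 0.04, −0.05 and −0.08 between same-numbered libraries. Those means include WT VTA 3 and KI VTA 3, which stand apart in their groups. The correlations therefore cannot decide whether the numbers pair the samples.

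With WT VTA 3 included, log2 fold changes turned to −1.05 for Egr1, −0.41 for Nts, −2.34 for Ppp1r1b, −0.23 for Slc1a3, 0.0091 for Snap25 and 0.20 for Th. List medians turned to 0.21 for dopamine neurons, 0.011 for hypothalamic neurons, 0.45 for thalamic neurons, 0.19 for hindbrain and cerebellar neurons, 0.12 for monoamine genes, 0.042 for GABA synthesis and GABA-B genes, −0.25 for glucocorticoid targets, 0.022 for substrain genes, 0.10 for mitochondrial ribosomal proteins, 0.12 for proteasome subunits and −0.52 for cilia genes. Without KI VTA 3 the substrain median was 0.046. Leaving out 1 of the 5 libraries changed the sign of 3 genes that were not called, with ranges of −0.15 to 0.14 for Gria1, −0.40 to 0.91 for Slc6a3 and −0.78 to 0.25 for Th. Apart from the libraries left out, the cause was not tested. With 2 WT libraries the spread within WT rests on a single difference.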
